A study of Homo sapiens with 12 samples.

Results

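JAG1 and 9 further genes of the Notch pathway were followed across 4 groups of human colorectal cancer cells. The genes are the ligands JAG1, JAG2, DLL1 and DLL4, the receptors NOTCH1, NOTCH2 and NOTCH3, the nuclear factor RBPJ and the target genes HES1 and HEY1. They were taken by symbol, as all probe sets that the platform annotation ties to 1 of these 10 genes and to no other gene, which gave 27 of the 54675 probe sets on the array. HCT116 is a colorectal cancer line that carries an oncogenic RAS allele, and Hke3 and Hkh-2 are isogenic derivatives in which homologous recombination removed it and which the labels give as wild type for that gene. The 12 arrays form 4 groups of 3, HCT116 control cells given 25 ng/ml doxycycline, HCT116 control cells given vehicle, Hke3 and Hkh-2. Both HCT116 control groups were collected on day 3, and the labels describe all cells as grown in DMEM with serum. The study was set up to find genes tied to oncogenic RAS activity in these cells. Each recombined line is a single clone, so a property of the clone and the loss of the RAS allele cannot be told apart within 1 line. Per the methods, the recombined lines were kept in basal condition, while the doxycycline and vehicle arm used cells with inducible vectors, so vehicle, any vector in the control cells and the RAS allele cannot be told apart in a difference between HCT116 and a recombined line. The sources describe parental HCT116 in basal condition, but whether the control cells on these arrays count as parental is not stated, so HCT116 stands for the vehicle-treated control cells in each difference from a recombined line. The comparisons with Hke3 and with Hkh-2 share those 3 vehicle arrays. Whether replicate arrays represent separate cultures is stated in neither the methods nor the labels, so p-values here reflect array-to-array spread that may be purely technical.

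Notch receptors are single-pass membrane proteins that are activated by ligands on neighbouring cells, which belong to the Jagged and Delta-like families. Ligand binding and ligand endocytosis expose the receptor to cleavage by an ADAM protease and then by the γ-secretase complex, and the released intracellular part enters the nucleus. There it joins RBPJ and a Mastermind co-activator and turns on targets such as the repressors HES1 and HEY1, while RBPJ without the receptor fragment recruits co-repressors. In the intestinal crypt, Notch signalling is known for keeping progenitors proliferating and for favouring absorptive over secretory fate through HES1, which represses ATOH1.

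The sequences that help to place the measured genes are the promoters of HES1, of NRARP, a Notch target that encodes a feedback inhibitor, and of JAG1, the ligand. HES1 and NRARP were higher in HCT116 than in both recombined lines, and JAG1 was lower. Each window holds 250 bases before the annotated RefSeq start and 50 bases from it on (GRCh38.p14), written along the gene's own strand. Capitals mark TGGGAA, the core of the RBPJ site, or TTCCCA, its reverse complement.
HES1, chr3:194135898-194136197, plus strand: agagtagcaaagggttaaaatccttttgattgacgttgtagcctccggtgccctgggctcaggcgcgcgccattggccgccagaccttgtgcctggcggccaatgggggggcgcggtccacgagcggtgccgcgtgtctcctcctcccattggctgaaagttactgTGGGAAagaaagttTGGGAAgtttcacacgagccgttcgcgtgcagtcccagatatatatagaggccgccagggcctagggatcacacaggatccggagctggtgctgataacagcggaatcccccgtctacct
NRARP, chr9:137302222-137302521, minus strand: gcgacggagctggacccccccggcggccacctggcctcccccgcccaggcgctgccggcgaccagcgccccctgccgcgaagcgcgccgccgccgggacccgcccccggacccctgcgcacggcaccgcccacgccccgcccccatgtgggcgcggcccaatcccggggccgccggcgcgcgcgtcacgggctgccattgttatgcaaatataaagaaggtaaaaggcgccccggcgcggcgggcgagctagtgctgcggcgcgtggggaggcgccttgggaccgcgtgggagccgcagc
JAG1, chr20:10673950-10674249, minus strand: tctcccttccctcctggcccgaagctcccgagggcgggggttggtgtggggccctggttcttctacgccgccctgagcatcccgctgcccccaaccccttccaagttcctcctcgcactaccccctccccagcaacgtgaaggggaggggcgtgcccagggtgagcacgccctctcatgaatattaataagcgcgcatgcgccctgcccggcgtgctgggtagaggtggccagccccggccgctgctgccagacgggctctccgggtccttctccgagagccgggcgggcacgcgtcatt
The HES1 window holds the core motif at 2 places, 84 and 70 bases before the start, and the letters before the first make it GTGGGAA. The NRARP and JAG1 windows hold it on neither strand, and neither do the windows of JAG2, DLL4, NOTCH1, NOTCH2 and NOTCH3. Of the 5 RefSeq windows of RBPJ, 1 holds the motif, at 115 and 72 bases before its start. The motif on either strand occurs in 24.0% of all 35116 promoter windows of this length in the table, and GTGGGAA or its reverse complement in 6.25%. A match describes letters and is no measured binding.

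Expression is given as the log2 value that the authors made with RMA, so that a difference of 1 is a doubling of signal, and levels are compared between groups within a probe set only. For each gene, the probe set with the highest 12-array mean was used. The gene was tested where at least 1 group mean reached 6, a level taken as near background, and 12852 of 19775 genes were tested, among them all 10 members. Of their 27 probe sets, 23 passed the same filter and 4 did not. Differences were tested with limma over all genes kept, and called at a Benjamini-Hochberg adjusted p under 0.05. Array medians lay between 5.8 and 5.86, and arrays of a group correlated with r of 0.993 to 0.998 across probe sets. Vehicle replicate 2 of HCT116 and replicate 3 of Hke3 stood apart from their groups, and their deviations from the group means correlated across genes with r = 0.683. For JAG1, JAG2, NOTCH3 and RBPJ, values without both of these arrays are also given. Of 11 colon epithelium markers, 9 were above background, with EPCAM at 13.09 in doxycycline-treated HCT116, 13.09 in vehicle-treated HCT116, 13.24 in Hke3 and 13.16 in Hkh-2, while CDH17 and LGALS4 stayed under 6 in all groups. The markers of other cell types were near background for 4 of 7 leukocyte genes, among them PTPRC (3.80 to 3.94), 5 of 8 endothelial genes, among them CDH5 and KDR, and 3 of 6 fibroblast genes, and the highest of the rest were CD79A (7.68 to 7.92), PECAM1 (6.56 to 6.86) and COL1A1 (8.19 to 8.43). No leukocyte gene was called in any comparison, while PECAM1 was higher in HCT116, at 0.24 against Hke3 (adjusted p = 0.0182) and 0.29 against Hkh-2 (0.00724). The 5′ minus 3′ difference of the actin control probe sets, a sign of RNA quality, moved with the groups. It ran between -0.942 and -0.706 in doxycycline-treated HCT116, between -0.855 and -0.48 in vehicle-treated HCT116, between -0.575 and -0.229 in Hke3 and between -0.324 and -0.232 in Hkh-2, and its part in the results was not tested.

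Against both recombined lines, HCT116 had more HES1 and NOTCH1 signal and less JAG1 and DLL1 signal. JAG2 was lower in Hke3 than in HCT116 and Hkh-2. NOTCH3 was lower in Hke3 than in Hkh-2 by gene, but none of its probe sets was called when tested by probe set. By the probe set used for each gene, DLL4, NOTCH2, HEY1 and RBPJ passed the threshold in no comparison. In HCT116 control vehicle minus Hke3, 3 of the 10 members were higher in HCT116 and 2 were lower, where 24.6% and 23.2% of all genes tested were higher and lower. In HCT116 control vehicle minus Hkh-2, 2 were higher and 2 lower, where 14.3% and 21.7% of all genes were. In Hke3 minus Hkh-2, 2 were higher and 2 lower, beside 16.3% and 23.5% of all genes. Both HES1 and NOTCH1 were higher in HCT116 than in both lines, a pattern of 9.04% of genes, and both JAG1 and DLL1 were lower than in both, a pattern of 12.6%. With 10 genes, these counts are close to the shares of all genes, and nothing particular to the members is read from them. The median log2 difference of the members was 0.0766 against Hke3, where that of all genes was 0.0447, and -0.0343 against Hkh-2, where that of all genes was -0.0205.

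**Figure D1:**
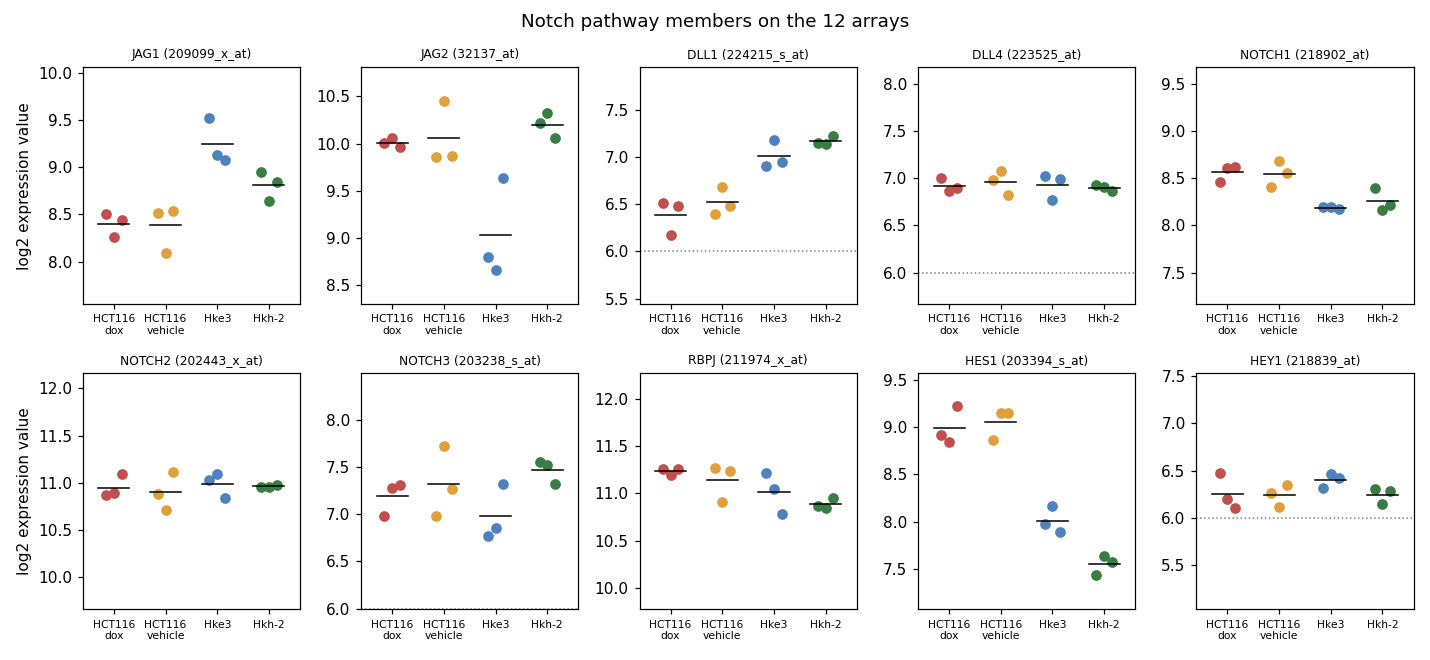
Log2 expression values of the 10 members (vertical axis) on each array (points) in HCT116 control with doxycycline, HCT116 control with vehicle, Hke3 and Hkh-2 (horizontal axis), with the group mean as a black line, 1 probe set per gene and panels of equal height in log2 units. HES1 is the member with the widest gap between the HCT116 arrays, at 8.84 or more, and those of the recombined lines, at 8.17 or less, and 1 Hke3 array of JAG2 lies near the HCT116 arrays at 9.64.

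JAG1, the Jagged ligand whose loss causes Alagille syndrome, was lowest in HCT116, intermediate in Hkh-2 and highest in Hke3. Its brightest probe set (209099_x_at) gave 8.51, 8.26 and 8.44 in doxycycline-treated HCT116, 8.52, 8.09 and 8.54 in vehicle-treated HCT116, 9.52, 9.13 and 9.08 in Hke3 and 8.95, 8.64 and 8.84 in Hkh-2. No array of either HCT116 group reached the lowest Hke3 or Hkh-2 array, and the Hke3 arrays lay above those of Hkh-2. The log2 difference was -0.86 ± 0.14 (SE) in HCT116 control vehicle minus Hke3 (adjusted p = 0.000321), which is 1.81-fold more signal in Hke3. It was -0.43 ± 0.14 against Hkh-2 (adjusted p = 0.0323) and 0.43 in Hke3 minus Hkh-2 (adjusted p = 0.0296). Every JAG1 probe set has the suffix _s_at or _x_at and can bind several transcripts. The alternative setting that left such probe sets out did not measure JAG1. The difference from Hke3 passed the threshold in all 23 alternative settings that measured it, at -1.08 to -0.45. That from Hkh-2 did so in 18 of 23, and it was lost without vehicle replicate 2 (-0.28), without Hkh-2 replicate 1 (-0.36) and without Hkh-2 replicate 3 (-0.42). The difference between Hke3 and Hkh-2 was lost without Hke3 replicate 1 (0.29), without Hkh-2 replicate 2 (0.35) and without Hkh-2 replicate 3 (0.44). Without both arrays that stood apart, JAG1 was at -0.28 against Hkh-2 (adjusted p = 0.0762).

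The 6 probe sets of JAG1 did not move alike. 216268_s_at, the other bright one, gave 8.11, 8.24 and 8.37 in doxycycline-treated HCT116, 8.28, 7.86 and 8.36 in vehicle-treated HCT116, 9.49, 9.25 and 9.00 in Hke3 and 8.87, 8.66 and 8.74 in Hkh-2. It was lower in HCT116 by a larger margin, at -1.08 against Hke3 (adjusted p over all probe sets = 6.75e-05) and -0.59 against Hkh-2 (0.00631). 209098_s_at was lower against Hke3 (-0.50, adjusted p = 0.011), with a mean of 5.61 in vehicle-treated HCT116 that is near background, so that this size is a fitted value and no bound. It was at 0.14 against Hkh-2 (adjusted p = 0.467). 229924_s_at, with group means of 6.44 to 6.58, was at 0.10 and 0.12 and passed in neither comparison, and 231183_s_at was at -0.61 and 0.16 with adjusted p of 0.102 and 0.704. 209097_s_at lay under 6 in all groups. The mean of all 6 probe sets gave -0.07 against Hkh-2 (adjusted p = 0.66). Which transcripts of JAG1 each probe set binds was not analysed here.

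JAG2, the other Jagged ligand, differed from JAG1 in that Hke3 had the lowest signal. Its probe set 32137_at gave 10.01, 10.06 and 9.96 in doxycycline-treated HCT116, 9.86, 10.45 and 9.87 in vehicle-treated HCT116, 8.80, 8.66 and 9.64 in Hke3 and 10.22, 10.32 and 10.06 in Hkh-2. All Hke3 arrays lay below all other arrays, and the highest of them was replicate 3, 1 of the arrays that stood apart. JAG2 was 1.03 ± 0.22 higher in HCT116 than in Hke3 (adjusted p = 0.00179) and 1.17 lower in Hke3 than in Hkh-2 (adjusted p = 0.000958). Against Hkh-2 the difference was -0.14, with a 95% confidence interval of -0.61 to 0.33 (adjusted p = 0.655). Without both arrays that stood apart the differences were 1.13 against Hke3, -0.34 against Hkh-2 (adjusted p = 0.00506) and -1.47 in Hke3 minus Hkh-2, so the comparison with Hkh-2 passes only without them. The other probe set, 209784_s_at, showed the same order, with 1.09 against Hke3 and -0.12 against Hkh-2.

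DLL1, a Delta-like ligand, was lower in HCT116 than in both lines. Probe set 224215_s_at gave 6.51, 6.17 and 6.48 in doxycycline-treated HCT116, 6.40, 6.68 and 6.48 in vehicle-treated HCT116, 6.90, 7.18 and 6.95 in Hke3 and 7.15, 7.14 and 7.22 in Hkh-2. The HCT116 arrays lay below all arrays of the recombined lines, and Hke3 and Hkh-2 overlapped. The differences were -0.49 ± 0.11 against Hke3 (adjusted p = 0.00251) and -0.65 ± 0.11 against Hkh-2 (adjusted p = 0.00044), and Hke3 minus Hkh-2 was -0.16 (adjusted p = 0.278). Both differences from HCT116 passed in all 23 alternatives, at -0.60 to -0.22 against Hke3 and -0.73 to -0.29 against Hkh-2, the smallest as the mean of both DLL1 probe sets. The alternative without probe sets that can bind several transcripts did not measure DLL1. The second DLL1 probe set, 227938_s_at, was near background in all groups. DLL4, a ligand best known from sprouting vessels, stayed between 6.77 and 7.07 on all 12 arrays. Its differences were 0.03 against Hke3, with an interval of -0.16 to 0.22, and 0.06 against Hkh-2, with an interval of -0.14 to 0.25.

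Among the receptors, NOTCH1 was higher in HCT116 than in both lines by its brighter probe set. 218902_at gave 8.46, 8.61 and 8.62 in doxycycline-treated HCT116, 8.41, 8.68 and 8.55 in vehicle-treated HCT116, 8.19, 8.19 and 8.17 in Hke3 and 8.39, 8.16 and 8.21 in Hkh-2. Vehicle-treated HCT116 did not overlap either line, though its lowest array (8.41) was close to the highest Hkh-2 array (8.39). The difference was 0.36 ± 0.09 against Hke3 (adjusted p = 0.00434), or 1.29-fold, and 0.29 ± 0.09 against Hkh-2 (adjusted p = 0.0204). The call against Hkh-2 was lost without vehicle replicate 2 (0.22), without Hkh-2 replicate 2 (0.24) and without Hkh-2 replicate 3 (0.27). The second probe set, 223508_at, gave 0.00 against Hke3 and -0.11 against Hkh-2. As the mean of both probe sets, NOTCH1 was at 0.18 (adjusted p = 0.0915) and 0.09 (0.431). The increase in HCT116 was thus seen by 1 of the 2 probe sets of NOTCH1.

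NOTCH2 did not pass the threshold by its brightest probe set. 202443_x_at gave 10.87, 10.89 and 11.09 in doxycycline-treated HCT116, 10.88, 10.71 and 11.12 in vehicle-treated HCT116, 11.03, 11.09 and 10.84 in Hke3 and 10.96, 10.96 and 10.98 in Hkh-2. All groups overlapped, and the differences were -0.08 against Hke3 and -0.06 against Hkh-2, with intervals of -0.31 to 0.14 and -0.29 to 0.17. Of the other probe sets, 202445_s_at and 212377_s_at did not pass either, while 210756_s_at was higher in HCT116. It gave 8.68, 8.86 and 8.98 in doxycycline-treated HCT116, 8.82, 8.86 and 8.98 in vehicle-treated HCT116, 8.74, 8.62 and 8.25 in Hke3 and 8.33, 8.32 and 8.45 in Hkh-2, a difference of 0.36 against Hke3 (adjusted p = 0.0283) and 0.52 against Hkh-2 (0.00427). NOTCH2 has near-identical partial copies in the human genome, and a probe set with the suffix _x_at or _s_at can bind more than 1 transcript, so the NOTCH2 values are uncertain.

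NOTCH3, a receptor best known from vascular smooth muscle, gave 6.98, 7.28 and 7.31 in doxycycline-treated HCT116, 6.98, 7.72 and 7.26 in vehicle-treated HCT116, 6.77, 6.85 and 7.32 in Hke3 and 7.55, 7.52 and 7.32 in Hkh-2 (203238_s_at). Vehicle replicate 2 and Hke3 replicate 3, the 2 arrays that stood apart, were the highest of their groups. The differences from HCT116 were 0.34 against Hke3 (adjusted p = 0.134) and -0.15 against Hkh-2 (adjusted p = 0.566), and Hke3 minus Hkh-2 was -0.49 ± 0.18 (adjusted p = 0.0452). The last of these passed in 12 of 23 alternatives. Among the single arrays left out, it was lost without vehicle replicate 3 or doxycycline replicate 2 or 3 (-0.49 each), without Hke3 replicate 1 (-0.38) or 2 (-0.42) and without Hkh-2 replicate 1 (-0.44), 2 (-0.46) or 3 (-0.56). Without both arrays that stood apart, NOTCH3 was 0.34 lower in HCT116 than in Hkh-2 (adjusted p = 0.0286). Against Hke3 it passed without vehicle replicate 1 (0.51) and without Hke3 replicate 3 (0.51). In Hke3 minus Hkh-2, 203238_s_at missed the threshold in the limma fit over all probe sets (adjusted p = 0.0522). The second NOTCH3 probe set, 203237_s_at, was called in no comparison. It was at 0.28 against Hke3 (adjusted p = 0.139), 0.12 against Hkh-2 (0.569) and -0.16 in Hke3 minus Hkh-2 (0.427).

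**Figure D2:**
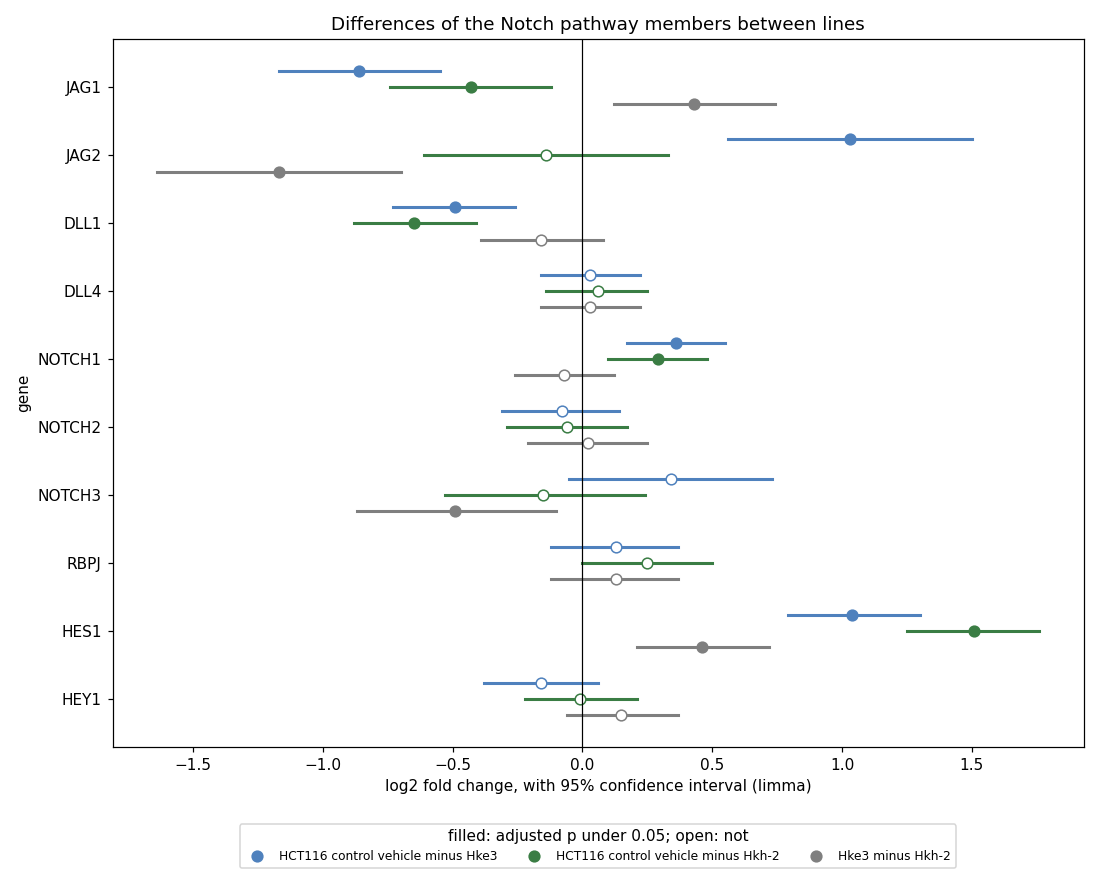
Log2 fold changes of the 10 members (rows) with 95% confidence intervals from limma (lines) for vehicle-treated HCT116 minus each recombined line and for Hke3 minus Hkh-2, filled where the adjusted p was under 0.05. HES1 lies right of 0 and JAG1 and DLL1 lie left of 0 in both comparisons with HCT116, and JAG2 lies right of 0 only against Hke3.

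RBPJ, the DNA-binding factor of the pathway, was measured by 2 probe sets above background. 211974_x_at gave 11.26, 11.19 and 11.26 in doxycycline-treated HCT116, 11.27, 10.91 and 11.24 in vehicle-treated HCT116, 11.21, 11.05 and 10.78 in Hke3 and 10.87, 10.84 and 10.95 in Hkh-2. The lowest vehicle array was replicate 2, which fell among the Hkh-2 arrays. The differences were 0.13 ± 0.12 against Hke3 (adjusted p = 0.388) and 0.25 ± 0.12 against Hkh-2 (adjusted p = 0.107). Against Hkh-2, RBPJ passed without vehicle replicate 2 (0.37), without Hke3 replicate 3 (0.25) and without both (0.37, adjusted p = 0.000918), with both HCT116 groups pooled (0.30), as the mean of its probe sets (0.24) and by the probe set with the largest variance (0.38), which makes 6 of 23 alternatives. Against Hke3 it passed in 1 of 23, by the probe set with the largest variance (0.32). The other probe set, 207785_s_at, gave 10.05, 10.17 and 10.14 in doxycycline-treated HCT116, 10.16, 10.03 and 9.99 in vehicle-treated HCT116, 9.82, 9.84 and 9.59 in Hke3 and 9.71, 9.80 and 9.55 in Hkh-2. Its HCT116 arrays lay above all arrays of both lines, with differences of 0.32 (adjusted p = 0.0143) and 0.38 (0.00654). A further RBPJ probe set, 229540_at, was near background in all groups.

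HES1, the repressor that Notch induces in intestinal progenitors, was the member with the largest difference from Hkh-2. Against Hke3, JAG2 differed about as much by gene (1.03), and single probe sets of JAG2 (1.09) and JAG1 (-1.08) differed more than those of HES1. HES1 probe set 203394_s_at gave 8.92, 8.84 and 9.22 in doxycycline-treated HCT116, 8.86, 9.15 and 9.15 in vehicle-treated HCT116, 7.97, 8.17 and 7.89 in Hke3 and 7.43, 7.64 and 7.57 in Hkh-2. HCT116 was highest, Hke3 intermediate and Hkh-2 lowest, and no 2 of these lines overlapped. HES1 was 1.04 ± 0.12 higher in HCT116 than in Hke3, or 2.06-fold (adjusted p = 1.29e-05), and 1.51 ± 0.12 higher than in Hkh-2, or 2.84-fold (adjusted p = 4.98e-07). Hke3 minus Hkh-2 was 0.46 (adjusted p = 0.00746). All 3 differences passed in all 23 alternatives, at 0.59 to 1.14 against Hke3 and 0.90 to 1.60 against Hkh-2. The alternative without probe sets that can bind several transcripts did not measure HES1, since both HES1 probe sets above background are of that kind. The second probe set above background, 203395_s_at, gave 7.90, 7.99 and 8.14 in doxycycline-treated HCT116, 8.07, 7.90 and 8.24 in vehicle-treated HCT116, 7.43, 7.70 and 7.14 in Hke3 and 6.84, 6.75 and 6.90 in Hkh-2. It showed the same order, with 0.65 against Hke3 (adjusted p = 0.00164) and 1.24 against Hkh-2 (1.16e-05), and the third, 203393_at, was near background. The HES1 promoter window printed above holds the core RBPJ motif at 2 places, and 1 RBPJ window also holds it at 2 places, on opposite strands. Whether the motif has a part in the HES1 differences was not tested.

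HEY1, the other target, was close to background. 218839_at gave 6.47, 6.20 and 6.10 in doxycycline-treated HCT116, 6.26, 6.11 and 6.35 in vehicle-treated HCT116, 6.32, 6.46 and 6.42 in Hke3 and 6.31, 6.15 and 6.28 in Hkh-2, and it passed in no comparison. 44783_s_at gave 6.18, 6.10 and 5.97 in doxycycline-treated HCT116, 6.23, 5.65 and 5.79 in vehicle-treated HCT116, 6.45, 6.69 and 6.26 in Hke3 and 6.04, 5.88 and 5.96 in Hkh-2. By this probe set HEY1 was higher in Hke3 than in vehicle-treated HCT116 and Hkh-2, at -0.57 in HCT116 control vehicle minus Hke3 (adjusted p = 0.00531) and 0.51 in Hke3 minus Hkh-2 (adjusted p = 0.014). Since the means of vehicle-treated HCT116 (5.89) and Hkh-2 (5.96) are near background, those sizes are fitted values and no bounds.

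**Figure D3:**
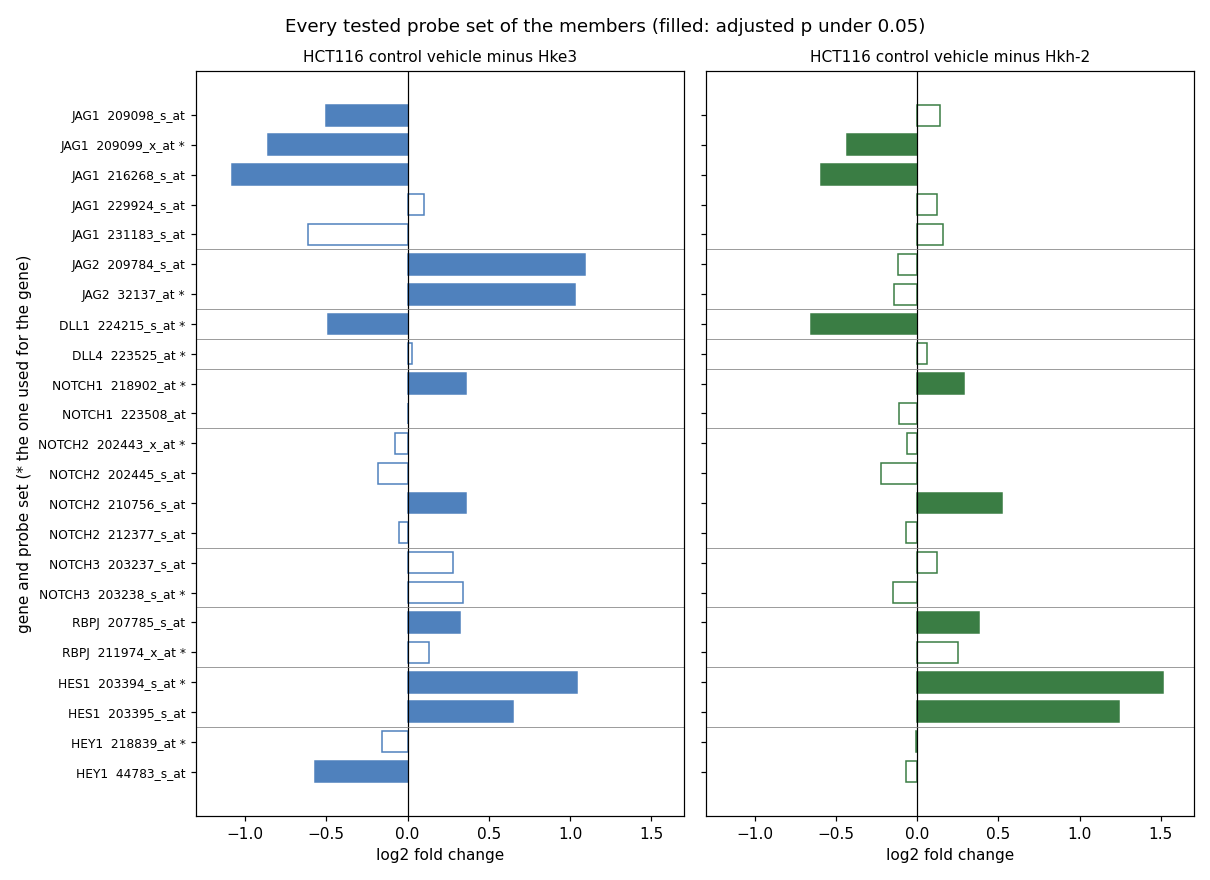
Log2 fold change (horizontal axis) of each of the 23 tested probe sets of the members (rows, grouped by gene), in HCT116 control vehicle minus Hke3 at the left and minus Hkh-2 at the right, filled where the adjusted p over all probe sets was under 0.05. Both probe sets of HES1 are filled to the right in both panels, while those of JAG1, NOTCH1, NOTCH2, RBPJ and HEY1 are partly filled and partly open in the left panel, and those of JAG2 are filled in the left panel and open in the right.

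Counted by probe set, 12 of the 23 were called in HCT116 control vehicle minus Hke3, 7 higher and 5 lower, where 44.8% of all 27344 probe sets tested were called. Against Hkh-2, 8 were called, 5 higher and 3 lower, beside 35.6% of all probe sets. In Hke3 minus Hkh-2, 8 were called, 6 higher and 2 lower, beside 36.0%. No member had probe sets called in opposite directions in any comparison.

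Doxycycline left the members without a called difference. In HCT116 control doxycycline minus vehicle, 0 of the 10 members and 0 of the 12852 genes passed (0% of genes and 0% of probe sets), with limma and also with its trend and robust prior, and 127 genes but none of the members had an unadjusted p under 0.05. The differences of the members ran between -0.13 for DLL1 and NOTCH3 and 0.10 for RBPJ. JAG1 was at 0.02, with an interval of -0.29 to 0.33, and HES1 at -0.06, with an interval of -0.32 to 0.19. No adjustment over genes enters these 95% intervals, so they are no detection limits. Larger differences may also have gone uncalled with 3 arrays per group.

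Beyond the 10 members, the wider pathway was described by lists of 72 genes, 67 of which were measured by an own probe set and 62 tested. In HCT116 control vehicle minus Hke3, 13 of the 62 were higher and 18 lower, beside 24.6% and 23.2% of all genes, and against Hkh-2, 8 were higher and 18 lower, beside 14.3% and 21.7%. Nothing particular to the pathway is read from these counts. Their medians were 0.02 and -0.07. Receptor proteolysis covers the proteases and γ-secretase subunits that release the receptor's intracellular part. Of its 8 genes tested, 6 fell below Hke3 and 5 below Hkh-2 in HCT116, with 4 lower in both and none higher. Of all genes, 23.2%, 21.7% and 12.6% were lower than in Hke3, in Hkh-2 and in both. Among the role lists, this one had the most genes called in a single direction against each line, so it is the extreme of several lists. Other lists were mixed, such as nuclear activators with 2 higher and 3 lower against Hke3. The γ-secretase subunit PSENEN gave 8.60, 8.65 and 8.68 in doxycycline-treated HCT116, 8.67, 8.73 and 8.80 in vehicle-treated HCT116, 9.60, 9.55 and 9.41 in Hke3 and 9.36, 9.43 and 9.49 in Hkh-2, so HCT116 lay below both lines on every array. PSENEN differed by -0.79 against Hke3 (adjusted p = 2.13e-06) and -0.69 against Hkh-2 (8.51e-06). The subunits APH1A (-0.50 and -0.80) and APH1B (-0.74 and -0.56) and the protease ADAM10 (-0.54 and -0.44) were lower against Hke3 and Hkh-2 in the same order, and all 4 passed in every alternative run.

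**Figure D4:**
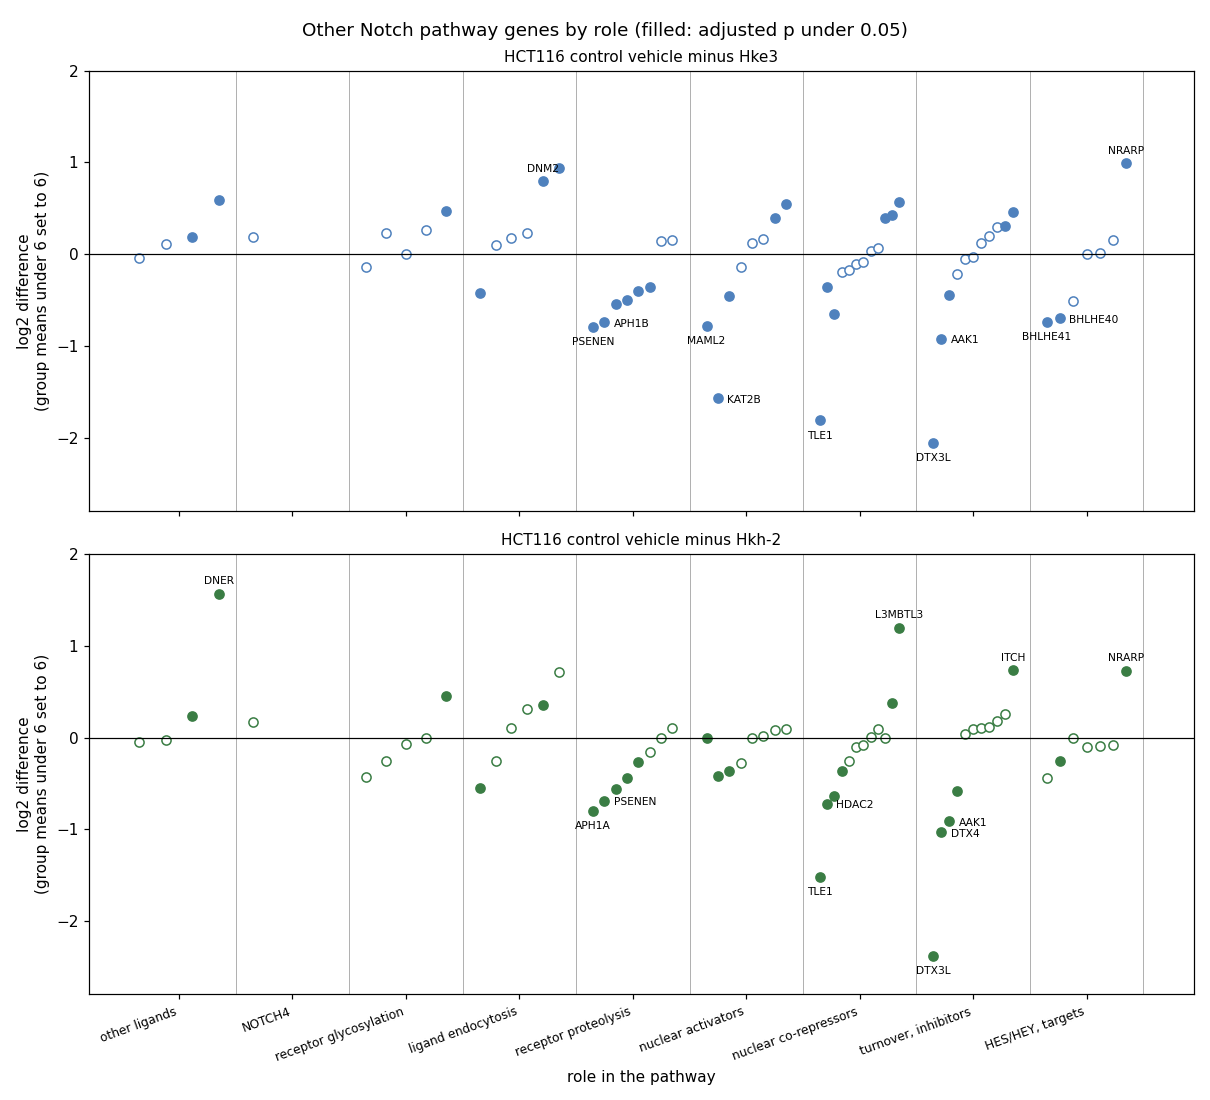
Log2 difference (vertical axis, group means under 6 set to 6) of the tested pathway genes other than the 10 members, grouped by role (horizontal axis), in HCT116 control vehicle minus Hke3 above and minus Hkh-2 below, 1 point per gene and filled where the adjusted p was under 0.05. Genes of receptor proteolysis that are filled all lie below 0, TLE1 and DTX3L lie lowest, and NRARP lies above 0 in both panels.

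In the list of HES and HEY family genes, targets and related repressors, the target NRARP moved as HES1 did between HCT116 and the recombined lines. It gave 8.80, 8.78 and 8.64 in doxycycline-treated HCT116, 8.72, 8.85 and 8.74 in vehicle-treated HCT116, 7.79, 7.77 and 7.77 in Hke3 and 8.04, 8.12 and 7.97 in Hkh-2. All HCT116 arrays were above all arrays of both lines, with a difference of 0.99 against Hke3 (adjusted p = 2.53e-07) and 0.73 against Hkh-2 (5.24e-06), and its promoter window holds no core RBPJ motif. Hke3 minus Hkh-2 was -0.26 (adjusted p = 0.012), the opposite sign to that of HES1, and this call was lost without Hkh-2 replicate 2 (-0.23). The E-box repressor BHLHE40 was lower in HCT116 than in Hke3 (-0.70, adjusted p = 0.00015) and at -0.08 against Hkh-2, and its relative BHLHE41 was at least 0.74 lower than in Hke3. HES6, which antagonises HES1, was 0.26 lower than in Hkh-2 (adjusted p = 0.0391), a call kept in 14 of 24 alternatives. Of the 12 genes in this list 9 were tested, 2 of them higher and 2 lower against Hke3, beside 24.6% and 23.2% of all genes, and HES5, HES7 and HEY2 were near background in all groups.

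Of the non-canonical ligands, DNER was higher in HCT116. It gave 8.27, 8.51 and 8.20 in doxycycline-treated HCT116, 8.31, 8.48 and 8.46 in vehicle-treated HCT116, 7.96, 7.76 and 7.76 in Hke3 and 6.91, 6.85 and 6.78 in Hkh-2. HCT116, Hke3 and Hkh-2 formed 3 separate levels, with differences of 0.59 against Hke3 (adjusted p = 0.000239) and 1.57 against Hkh-2 (3.86e-08). DLK2 was higher by 0.19 and 0.23, calls that were kept in 8 and 19 of 23 alternatives. POFUT1, which adds the O-fucose that ligand binding needs, was higher by 0.47 (adjusted p = 0.000623) and 0.45 (0.00108). In ligand endocytosis, the ubiquitin ligase MIB1 went opposite ways against the 2 lines, at -0.42 against Hke3 (adjusted p = 0.00348) and 0.35 against Hkh-2 (0.0136), and Hke3 was 0.78 above Hkh-2 (adjusted p = 5.14e-05). The MIB1 call against Hkh-2 was kept in 20 of 24 alternatives. Its losses included those without vehicle replicate 1 (0.32) or 3 (0.27) and without Hkh-2 replicate 1 (0.32). Its relative MIB2 was lower than in Hkh-2 (-0.55, adjusted p = 0.021), which was lost without vehicle replicate 1 (-0.49) or 3 (-0.46) and without Hkh-2 replicate 2 (-0.48). Only 1 of the 3 MIB2 probe sets was called, over a range of -0.55 to 0.23, and their mean was at -0.07 (adjusted p = 0.601). The dynamin DNM2 was 0.80 higher than in Hke3 (adjusted p = 0.00742) and at 0.31 against Hkh-2 (0.283).

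In the nucleus, co-repressor and co-activator genes moved in both directions. TLE1, a Groucho-type co-repressor that works with HES proteins, gave 8.19, 8.22 and 8.42 in doxycycline-treated HCT116, 8.27, 8.06 and 8.50 in vehicle-treated HCT116, 10.22, 9.94 and 10.08 in Hke3 and 9.90, 9.63 and 9.85 in Hkh-2. HCT116 lay more than 1 log2 unit below both lines on every array, with differences of -1.81 (adjusted p = 9.31e-08) and -1.52 (5.06e-07). The deacetylase gene HDAC2 was lower in HCT116, at -0.65 and -0.72, whereas the RBPJ-binding repressor L3MBTL3 was 1.20 higher than in Hkh-2 (adjusted p = 7.49e-05). Against Hke3, L3MBTL3 was at 0.43 with overlapping arrays (adjusted p = 0.044), kept in 9 of 24 alternatives. The RBPJ-binding BEND6 was at least 0.36 lower in HCT116 than in Hke3. Among co-activators, the Mastermind gene MAML2 was at least 0.78 lower than in Hke3, and its level was near background in vehicle-treated HCT116 and Hkh-2. The acetyltransferase gene KAT2B was lower, at -1.57 against Hke3 (adjusted p = 3.06e-07) and -0.36 against Hkh-2 (0.0308). Its call against Hkh-2 was kept in 20 of 24 alternatives. The losses included those without vehicle replicate 2 (-0.23) and without Hkh-2 replicate 1 (-0.27). CREBBP differed by -0.46 (adjusted p = 0.00636) and -0.42 (0.0134), where the second was lost without Hkh-2 replicate 3 (-0.39). Of the 3 CREBBP probe sets, 1 was lower than in Hke3 and 2 were lower than in Hkh-2, and as their mean the difference from Hke3 was at -0.12 (adjusted p = 0.0909). KAT2A differed by 0.55 (0.00203) and 0.02 (0.921).

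Among genes of receptor turnover, the Deltex-family ubiquitin ligase DTX3L had the largest difference of the whole pathway set against Hkh-2. It gave 7.78, 8.16 and 8.12 in doxycycline-treated HCT116, 7.84, 7.76 and 8.25 in vehicle-treated HCT116, 10.13, 10.21 and 9.68 in Hke3 and 10.41, 10.23 and 10.36 in Hkh-2. HCT116 lay below both lines on every array, at -2.06 against Hke3 (adjusted p = 3.29e-07) and -2.38 against Hkh-2 (9.05e-08). DTX4 was lower than in Hkh-2 (-1.03, adjusted p = 3.18e-06) and at -0.22 against Hke3 (0.0864), and the kinase AAK1, which binds the Notch inhibitor NUMB, was lower than in both (-0.92 and -0.91), by 2 of its 3 probe sets. The ubiquitin ligase ITCH was higher than in both (0.46 and 0.74), by 4 of its 5 probe sets in each comparison and with 0 called lower. Without probe sets that can bind several transcripts it was at -0.17 and 0.00 and passed in neither comparison. NUMB was near background in all groups.

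Markers of the secretory lineage, which Notch represses in the intestine, were mostly near background. Of 11 measured, 4 were above it and none was called in any comparison, and ATOH1, CHGA, TFF3, SPINK4, CLCA1 and AGR2 were under 6 in all groups. The mean log2 value over the 11 genes ran between 5.72 and 5.83 in doxycycline-treated HCT116, between 5.71 and 5.82 in vehicle-treated HCT116, between 5.61 and 5.77 in Hke3 and between 5.68 and 5.73 in Hkh-2. Some epithelial markers differed between the lines. KRT20, a keratin of differentiated colon cells, averaged 6.62 in doxycycline-treated HCT116, 6.64 in vehicle-treated HCT116, 6.86 in Hke3 and 8.86 in Hkh-2, a difference of -2.22 against Hkh-2 (adjusted p = 1.25e-08). CDH1, the epithelial cadherin, was lower in HCT116, at -0.83 against Hke3 (adjusted p = 2.67e-05) and -1.17 against Hkh-2 (1.41e-06). Others went the other way against Hke3, where the homeobox gene CDX2 was at 0.44 (adjusted p = 0.0109) and the keratin gene KRT18 at 0.20 (0.049). Against Hke3, 2 of 9 epithelial markers tested were higher and 2 lower, beside 24.6% and 23.2% of all genes. Against Hkh-2, 0 of these markers were higher and 5 lower, beside 14.3% and 21.7% of all genes. Their part in the differences of the members was not tested, and in bulk RNA fewer cells of a kind and less RNA per cell cannot be told apart.

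The 5 genes whose pattern was most like that of JAG1 over the 12 arrays, by Pearson's r among 12851 other genes, were ZNF165 (0.982), ELOVL7 (0.979), GPR180 (0.977), EPB41L4B (0.975) and ZNF112 (0.974). These values describe 12 arrays that fall into 4 groups and share the groups' differences. GPR180, a membrane protein gene, had the largest group differences of them, at -1.22 against Hke3 and -0.68 against Hkh-2. HES1 had r = -0.696 with JAG1 over the same arrays, with HCT116 highest for HES1 and lowest for JAG1.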

How the data were processed

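RNA of HCT116 control cells with 25 ng/ml doxycycline, HCT116 control cells with vehicle, Hke3 and Hkh-2 was hybridised to Affymetrix arrays, 3 for each group. Log2 values, 1 for every probe set on an array, were deposited by the authors and had been made with RMA per the submitters' processing notes. RMA corrects background and normalizes between arrays, which compresses small fold changes of dim probe sets. Its version, the chip definition used and which arrays were normalized together are not given in the sources used here.

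Gene names came from the platform annotation, updated to current RefSeq symbols (GRCh38.p14) through the gene ID for 41043 of 41097 probe sets with a single symbol. The fit used limma (3.58.1) in R (4.3.3) with 4 group means over the 12 arrays and eBayes. Benjamini-Hochberg adjustment covered the 12852 genes kept, or the 27344 probe sets kept. With 3 arrays against 3, the smallest two-sided p of an exact test is 0.1. The members and the lists were chosen with earlier results of these data known. Named are all 10 members with every probe set, the 5 genes most like JAG1 and, per other list, up to 4 genes called with arrays that do not overlap, by size of change. A pairing of arrays was looked for by replicate number only, and the main fit used none. Deviations of vehicle and doxycycline arrays from their group means correlated at r = 0.228, 0.212 and 0.453 for replicates 1, 2 and 3. In no other 2 groups did every replicate number pass 0.1, though single values reached 0.422, for replicate 2 of vehicle and Hkh-2. A group mean under 6 was counted as 6 where a size is given as a bound. Alternatives were other summaries of probe sets, filters, normalizations, priors, a replicate block, pooled controls and leaving out arrays. Promoter sequences were read from RefSeq windows for 8 of the 10 members. The gene recombined in Hke3 and Hkh-2 is not named or reported. The procedure was tested on simulated data.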

Additional observations from a re-analysis of the deposited data

Results flagged for a closer look

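For 4 members the difference from HCT116 was not the same in the 2 recombined lines, as tested directly by Hke3 minus Hkh-2 with limma. JAG1 was 0.43 higher in Hke3 than in Hkh-2 (adjusted p = 0.0296). JAG2 was at -1.17 in the same comparison (adjusted p = 0.000958), NOTCH3 at -0.49 (adjusted p = 0.0452) and HES1 at 0.46 (adjusted p = 0.00746). HES1 kept its side of the threshold in all alternatives run, JAG2 did so too, and JAG1 and NOTCH3 did not. In the limma fit over all probe sets, neither NOTCH3 probe set was called in this comparison (adjusted p = 0.0522 and 0.427). Hke3 and Hkh-2 differed in 16.3% of genes upwards and 23.5% downwards, so such differences between the 2 clones were common.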

How the results depend on the processing

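Leaving out probe sets that can bind several transcripts left 4 members measured, JAG2, DLL4, NOTCH1 and HEY1, but not JAG1, DLL1 or HES1. Against Hke3 it gave 0 members lower and 8 other pathway genes higher, against Hkh-2 1 member higher, 0 lower and 5 other genes higher, and in Hke3 minus Hkh-2 0 members higher and 1 lower. The probe set with the largest variance gave 5 members higher against Hke3 and 4 against Hkh-2, and it reversed NOTCH2 to 0.36 and 0.52. The mean of the probe sets gave 1 member lower against Hkh-2, with JAG1 at -0.07, and 1 lower in Hke3 minus Hkh-2, as did no filter (1) and cyclic loess (1). Past a log2 fold change of 1, against Hke3 0 members were lower, and of other pathway genes 0 were higher and 5 lower. Against Hkh-2, 1 member was higher and 0 lower, and 2 other genes were higher and 3 lower. In Hke3 minus Hkh-2, 0 members were higher and 1 lower, and 4 other genes were higher and 0 lower. Without the 2 arrays that stood apart, JAG1 was at -0.28 and 12 other pathway genes were higher against Hkh-2, and 13 member probe sets were called in Hke3 minus Hkh-2. Calls rose over all genes as well, from 1842 to 2479 genes higher against Hkh-2. In Hke3 minus Hkh-2 they rose from 2100 to 2946 genes higher and from 3018 to 4397 lower. ITCH reversed to -0.17 against Hke3 without probe sets that bind several transcripts, a value that did not pass. KRT19 reversed to 0.16 against Hkh-2 and 0.69 in Hke3 minus Hkh-2 with the largest variance. With the mean, KRT19 reversed to 0.29 in Hke3 minus Hkh-2. The causes were not tested. With cyclic loess, 2528 of all 12854 genes were lower in Hke3 minus Hkh-2. For the other probe set choices, filters and fold change limit, and for single arrays left out, the share of all genes called was not worked out here. Nothing particular to the members or the pathway is read from the counts under these settings.

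With single arrays left out, JAG1 ran between -0.51 and -0.28 against Hkh-2 and between 0.29 and 0.51 in Hke3 minus Hkh-2. Members called higher ran between 1 and 3 against Hkh-2 and between 1 and 2 in Hke3 minus Hkh-2, members called lower between 1 and 2 in both, other genes higher against Hkh-2 between 5 and 10, and member probe sets in Hke3 minus Hkh-2 between 5 and 11. With the replicate block, the members called were 3 higher and 2 lower against Hke3 and 2 and 2 against Hkh-2, and no member's call changed. Of all member values under the alternatives, 916 kept their side of the threshold, 24 were lost, 16 gained and 2 reversed. The 916 include values that changed sign but passed neither in the main fit nor in the alternative. DLL4 against Hke3, for example, ran between -0.05 and 0.1 and passed in no alternative. The scalings shifted the median of all genes by less than 0.1.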

Other observations

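One probe set, 227067_x_at, carries 5 symbols, NOTCH2 and partial copies of it, and was not counted for NOTCH2. Its mean was 7.77 in vehicle-treated HCT116 and 8.12 in Hke3, a difference of -0.36 (adjusted p = 0.00989), and 8.38 in Hkh-2, a difference of -0.61 (adjusted p = 0.000324). Doxycycline minus vehicle was 0.06. Its direction is opposite to that of the NOTCH2 probe set 210756_s_at.

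Among markers of other cell types, VWF, a protein of endothelium and platelets, averaged 6.33 in doxycycline-treated HCT116 and 6.35 in vehicle-treated HCT116, at least 0.35 above Hke3 (5.34) and Hkh-2 (5.32). COL3A1, a fibrillar collagen gene, averaged 4.49 in vehicle-treated HCT116 and 4.45 in Hke3, and Hkh-2, at 6.73, was at least 0.73 above both.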
